A study of Arabidopsis thaliana with 12 samples.

Results

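A set of 10 genes of stress and seed maturation, 5 coding for late embryogenesis abundant (LEA) proteins and 5 coding for small heat shock proteins, were followed through basal Arabidopsis thaliana stems with altered C3H14 and C3H15, a pair of related CCCH zinc finger genes. The LEA genes were AT3G17520, AT3G02480, LEA4-5 (AT5G06760), AtLEA4-1 (AT1G32560) and AT3G15670. The small heat shock genes were AT1G53540, AT2G29500, AT1G54050, ATHSP22.0 (AT4G10250) and AT5G37670. They were chosen by their log2 levels on these same 12 arrays, seen in earlier results, so everything said of their own levels is a description, and no test of it counts as support. Each of the 10 had 1 probe set that matched 1 gene, out of 13513 such probe sets and 22746 probe sets tested, and none of the 10 carried a suffix that marks probes shared between genes.

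LEA proteins are mostly very hydrophilic proteins without a fixed fold, which accumulate late in seed development and in vegetative tissue that loses water, where they are thought to protect membranes and enzymes. Small heat shock proteins bind unfolding proteins so that they can be refolded by larger chaperones. In plants they are kept low in most unstressed vegetative tissue and are induced strongly by heat, and several also appear in maturing seeds.

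The 12 arrays held 3 samples each of C3H14 overexpressing plants (C3H14-OE), C3H15 overexpressing plants (C3H15-OE), the c3h14c3h15 double mutant and wild type (WT), all labelled ecotype Col-0, and the series asked which genes the zinc finger pair affects, with secondary walls and pollen as its themes. The RNA was that of the lowest 4 cm of inflorescence stems that had reached 12 to 17 cm. The plants stood together in a glasshouse at 22 °C with 16 h of light and 8 h of dark. The promoter of the overexpression constructs, the number of lines behind each group, the mutant alleles and the age of the plants are not stated in the labels. The labels call the 3 samples of a group biological replicates. Nothing says that they came from separate lines, so the p-values speak only of the spread among the arrays as deposited, which may not be that among lines.

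Levels are log2 of the deposited normalized intensity, and the array medians lay between 5.65 and 5.84. On each array 20% of the probe sets lay below a level of 2.98 to 3.16, so a level near 2 or 3 is near the dim end. C3H14 itself read 8.43, 9.10 and 7.07 on the C3H14-OE arrays, against 7.01, 6.12 and 7.43 on the WT arrays. Replicate 3 was thus inside the WT range for the gene it was labelled as overexpressing, and it is called the array labelled C3H14-OE replicate 3 below. In c3h14c3h15 C3H14 read 6.55, 6.43 and 6.085, which overlapped WT, and in C3H15-OE it read 5.18, 5.39 and 5.99, below all WT arrays. Its level thus did not set the mutant arrays apart from WT. C3H15 had no named probe set, so directions for C3H15-OE and for c3h14c3h15 rest on the labels. The stem wall genes GUT2 (IRX10), IRX15 and IRX15-L summed to an intensity of 723 on the array labelled C3H14-OE replicate 3. The other C3H14-OE arrays gave 718 and 854. The sums were 570, 385 and 877 in C3H15-OE, 2130, 2780 and 2280 in c3h14c3h15 and 1180, 1190 and 1370 in WT. For these genes the array labelled C3H14-OE replicate 3 thus lay among the overexpressor arrays and below all WT arrays. In whole stems, fewer cells of a type and less RNA per cell cannot be told apart.

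Among the 10 genes 8 had their highest level of the 12 arrays on the array labelled C3H14-OE replicate 3, and 6 of them stood more than 4-fold above the mean of the other 2 C3H14-OE arrays there. Of all 22746 probe sets, 6.27% were highest on that array and 0.659% stood more than 4-fold above the other 2. More than 2-fold above them stood 8 of the 10 genes, and 1.97% of all probe sets. These shares are given beside the counts only, since the genes were named with these values known. On none of the other 11 arrays did any of the 10 genes stand more than 4-fold above the other 2 arrays of its group. The intensities of the 10 genes summed to 1380 on the array labelled C3H14-OE replicate 3 and to 127 to 243 on the others.

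**Figure D1:**
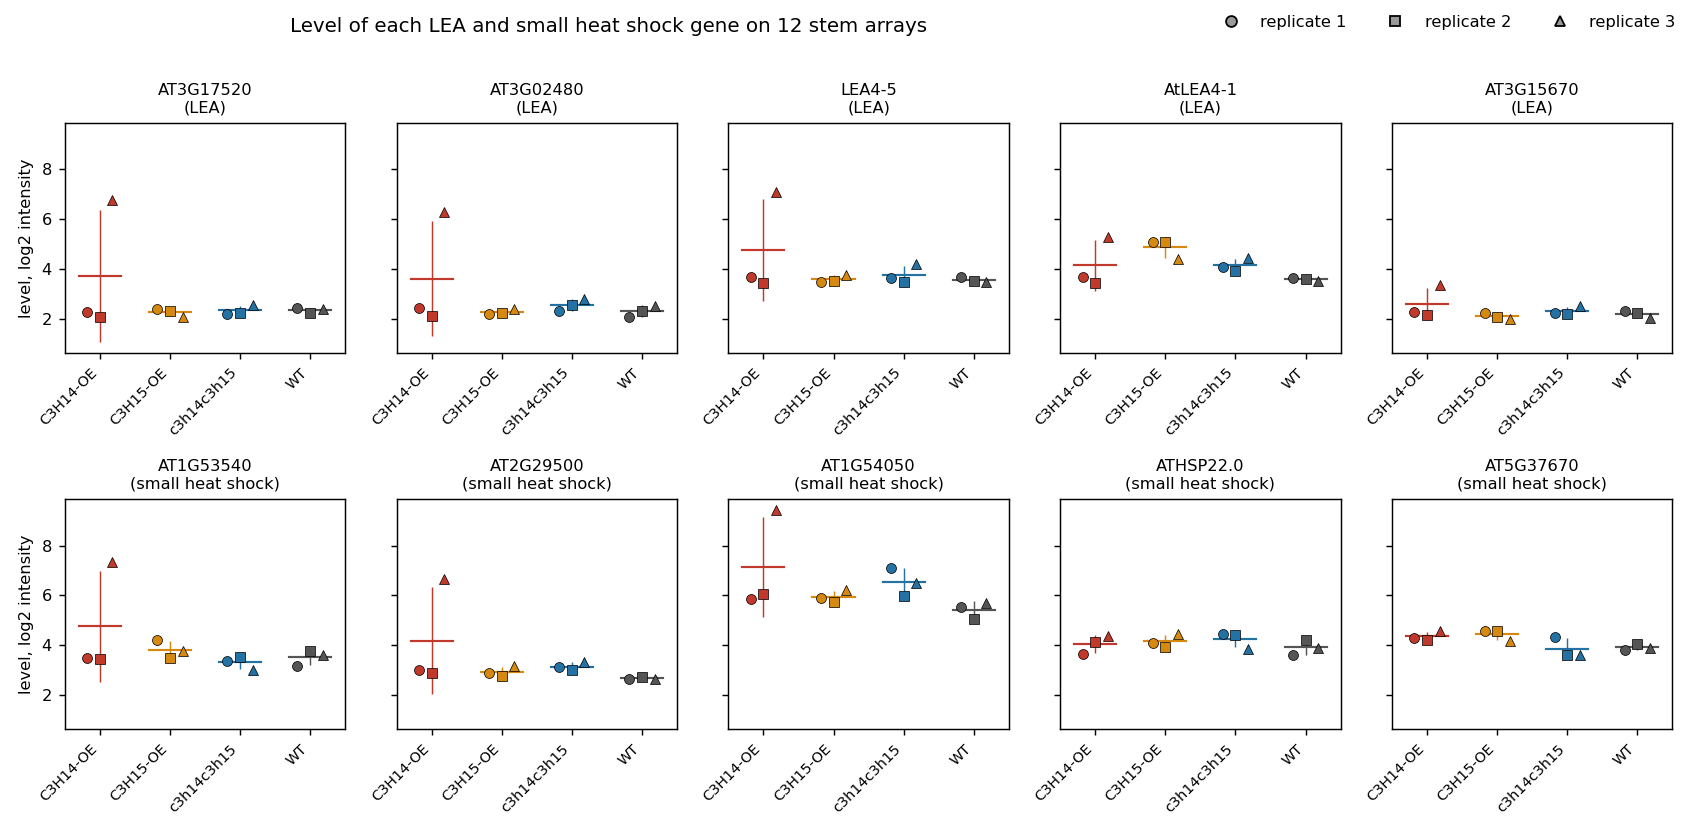
Log2 intensity (vertical axis) of each of the 10 genes on the 12 arrays, 1 point per array, grouped along the horizontal axis as C3H14-OE, C3H15-OE, c3h14c3h15 and WT, with the mean and SD of each group as lines. In 6 panels 1 point of C3H14-OE, from replicate 3, stands at 6.29 to 9.44, over 4-fold above the other 2 points of its group, while ATHSP22.0 and AT5G37670 show no such point.

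The LEA genes were read first. AT3G17520, a LEA family gene, had log2 levels of 2.29, 2.09 and 6.77 in C3H14-OE replicates 1 to 3, of 2.41, 2.34 and 2.10 in C3H15-OE, of 2.22, 2.26 and 2.56 in c3h14c3h15 and of 2.44, 2.24 and 2.40 in WT. The other 11 arrays lay within 0.47 log2 units of each other near the dim end, and 1 lay 4.21 log2 units above the highest of them. On the linear scale its intensity was 109 on that array, against 4.89 and 4.26 on the other C3H14-OE arrays, a 23.9-fold excess that ranked 15th of all probe sets tested. Put as a place among the probe sets of its array, AT3G17520 was at percentile 64.54 there and at percentile 6.17 to 11.69 elsewhere.

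AT3G02480, another LEA family gene, had levels of 2.44, 2.14 and 6.29 in C3H14-OE, of 2.19, 2.24 and 2.39 in C3H15-OE, of 2.32, 2.55 and 2.81 in c3h14c3h15 and of 2.07, 2.32 and 2.54 in WT. Its excess over the other 2 C3H14-OE arrays was 4.00 log2 units, or 16.1-fold, and the remaining arrays of all 4 groups overlapped. LEA4-5, a group 4 LEA gene with a known part in tolerance of water deficit, read 3.69, 3.46 and 7.10 in C3H14-OE, 3.48, 3.52 and 3.78 in C3H15-OE, 3.63, 3.49 and 4.19 in c3h14c3h15 and 3.67, 3.53 and 3.50 in WT. The excess was 3.53 log2 units (11.5-fold). For these 3 LEA genes the next highest array was c3h14c3h15 replicate 3, at 2.56, 2.81 and 4.19 in the order given, which is 2.91 to 4.21 log2 units below the array labelled C3H14-OE replicate 3.

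The other LEA genes differed from them. AT3G15670, whose product belongs to the LEA family and was the dimmest of the 10, read 2.30, 2.17 and 3.35 in C3H14-OE, 2.23, 2.10 and 2.01 in C3H15-OE, 2.23, 2.21 and 2.52 in c3h14c3h15 and 2.32, 2.26 and 2.05 in WT. It was also highest on the array labelled C3H14-OE replicate 3, by 0.84 log2 units (1.78-fold) over the next array and by 1.12 (2.18-fold) over the mean of the other C3H14-OE arrays, and its other 11 arrays lay at the dim end. AtLEA4-1, a group 4 gene like LEA4-5, read 3.70, 3.44 and 5.31 in C3H14-OE, 5.10, 5.11 and 4.40 in C3H15-OE, 4.08, 3.93 and 4.45 in c3h14c3h15 and 3.66, 3.62 and 3.52 in WT. Here all 3 arrays of C3H15-OE and all 3 of c3h14c3h15 lay above all 3 of WT, and C3H15-OE replicate 2 came within 0.20 log2 units of the array labelled C3H14-OE replicate 3. Of all probe sets, 12.7% lay above WT on every C3H15-OE array and 10.8% on every c3h14c3h15 array, and the share with both orders was not counted.

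The small heat shock genes also split, but not alike. On the array labelled C3H14-OE replicate 3 all 5 LEA genes were highest of the 12 arrays, and 3 of the 5 small heat shock genes were. AT1G53540, a cytosolic class I gene, read 3.48, 3.47 and 7.33 in C3H14-OE, 4.20, 3.48 and 3.76 in C3H15-OE, 3.39, 3.53 and 3.03 in c3h14c3h15 and 3.19, 3.77 and 3.61 in WT. AT2G29500, also of cytosolic class I, read 3.03, 2.88 and 6.65 in C3H14-OE, 2.88, 2.78 and 3.17 in C3H15-OE, 3.12, 3.01 and 3.33 in c3h14c3h15 and 2.66, 2.72 and 2.66 in WT. Both were near the dim end on 11 arrays, and their excess on the array labelled C3H14-OE replicate 3 was 3.85 log2 units (14.4-fold) for AT1G53540 and 3.69 (12.9-fold) for AT2G29500. The WT arrays of AT1G53540 lay among those of the other groups, whereas for AT2G29500 all 3 lay below all 9 others.

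AT1G54050, a class III gene, was the brightest of the 10, with levels of 5.87, 6.07 and 9.44 in C3H14-OE, of 5.92, 5.76 and 6.20 in C3H15-OE, of 7.11, 5.97 and 6.49 in c3h14c3h15 and of 5.54, 5.04 and 5.71 in WT. Its intensity of 696 on the array labelled C3H14-OE replicate 3, against 58.5 and 67.2 on the other C3H14-OE arrays, put it at percentile 94.42 of that array. It was near the middle of the other arrays, at percentile 42.64 to 71.0, and all 9 arrays of the other groups exceeded all 3 of WT. The genes AT2G29500 and AT1G54050 were the only 2 of the 10 with that order, which 0.928% of all probe sets had.

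ATHSP22.0, which codes for a small heat shock protein of the endoplasmic reticulum, read 3.65, 4.15 and 4.38 in C3H14-OE, 4.11, 3.94 and 4.44 in C3H15-OE, 4.44, 4.43 and 3.87 in c3h14c3h15 and 3.61, 4.23 and 3.91 in WT. The 4 groups overlapped and the array labelled C3H14-OE replicate 3 was 4th of 12. AT5G37670, which codes for a peroxisomal small heat shock protein, read 4.31, 4.23 and 4.57 in C3H14-OE, 4.60, 4.58 and 4.17 in C3H15-OE, 4.35, 3.61 and 3.63 in c3h14c3h15 and 3.82, 4.06 and 3.91 in WT. All 6 overexpressor arrays lay above the 3 WT arrays, while c3h14c3h15 replicate 1 lay with the overexpressors and the other 2 mutant arrays lay below WT. Of all probe sets, 9.31% lay above WT on every C3H14-OE array and 12.7% on every C3H15-OE array. The share that did so in both was not counted. Over their 2 group mates ATHSP22.0 and AT5G37670 stood 0.48 and 0.30 log2 units higher on the array labelled C3H14-OE replicate 3, the smallest excesses of the 10.

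**Figure D2:**
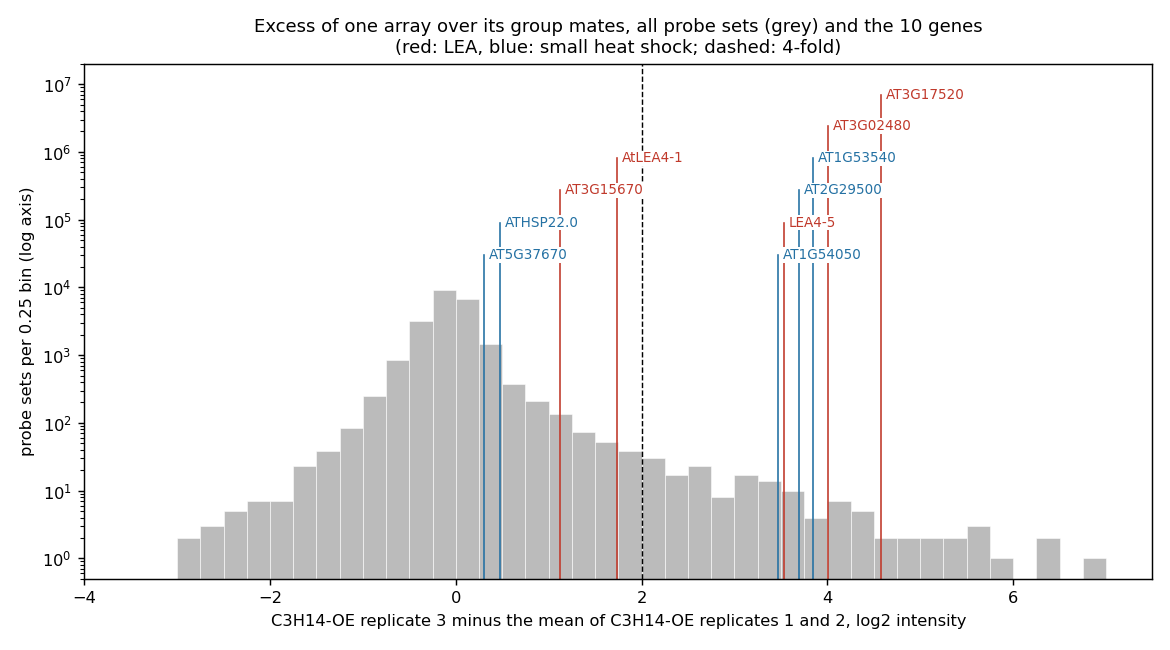
Histogram of all 22746 probe sets (grey, log vertical axis, bins of 0.25) by their log2 level on the array labelled C3H14-OE replicate 3 minus the mean of the other 2 C3H14-OE arrays (horizontal axis). Vertical lines mark the LEA genes in red and the small heat shock genes in blue: 6 lie right of the dashed line at 4-fold, between 3.47 and 4.58, and ATHSP22.0 and AT5G37670 lie in the bulk.

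Correlations between the 10 genes were lower without that array. Over all 12 arrays the 45 pairs among the 10 genes had a median Pearson r of 0.572, and 17 pairs had r over 0.9. Over the 11 arrays without the array labelled C3H14-OE replicate 3 the median was 0.122 and 0 pairs had r over 0.9. Among the LEA genes alone the median was 0.939 over 12 arrays and 0.336 over 11, and among the small heat shock genes it was 0.399 over 12 and 0.192 over 11. These correlations are descriptions over arrays that share their genotype groups and the normalization.

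The spread within groups includes the array labelled C3H14-OE replicate 3, so its division of the genes follows from the levels above and adds no support. AT3G17520 had a within-group residual SD of 1.33 log2 units, AT3G02480 of 1.17, AT1G53540 of 1.14, AT2G29500 of 1.07, AT1G54050 of 1.06 and LEA4-5 of 1.04, where the median of all probe sets was 0.179. For AtLEA4-1 it was 0.56, for AT3G15670 0.35, for ATHSP22.0 0.32 and for AT5G37670 0.26.

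Set against WT, the C3H14-OE group stood higher on average for all 10 genes, and for 9 of them, all but AT5G37670, the difference was smaller by more than 1.5 times, or below 0, without 1 array. By limma 0 of 10 passed an adjusted p of 0.05, where 0.044% of all probe sets passed, and 2 of 10 (AT1G54050 and AT5G37670) had an unadjusted p under 0.05, where 14% of all probe sets had one. The median log2 difference was 1.18 over the LEA genes and 1.23 over the small heat shock genes, and -0.04 over all probe sets. AT1G54050 had a mean difference of 1.70 log2 units (SE 0.73), AT2G29500 of 1.51 (SE 0.73) and AT3G17520 of 1.36 (SE 0.90). AT5G37670 stood at 0.44 (SE 0.20), and at 0.34 (SE 0.22) without the array labelled C3H14-OE replicate 3. Without the array labelled C3H14-OE replicate 3 the medians were -0.02 and 0.28, and AT3G17520 stood at -0.17 (SE 0.15) and AT1G54050 at 0.54 (SE 0.29), with 0 of 10 past the threshold and 0 of 10 with an unadjusted p under 0.05. The 3 C3H14-OE arrays lay above all 3 WT arrays for 3 of 10 genes (AT2G29500, AT1G54050 and AT5G37670), where 9.31% of all probe sets did.

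**Figure D3:**
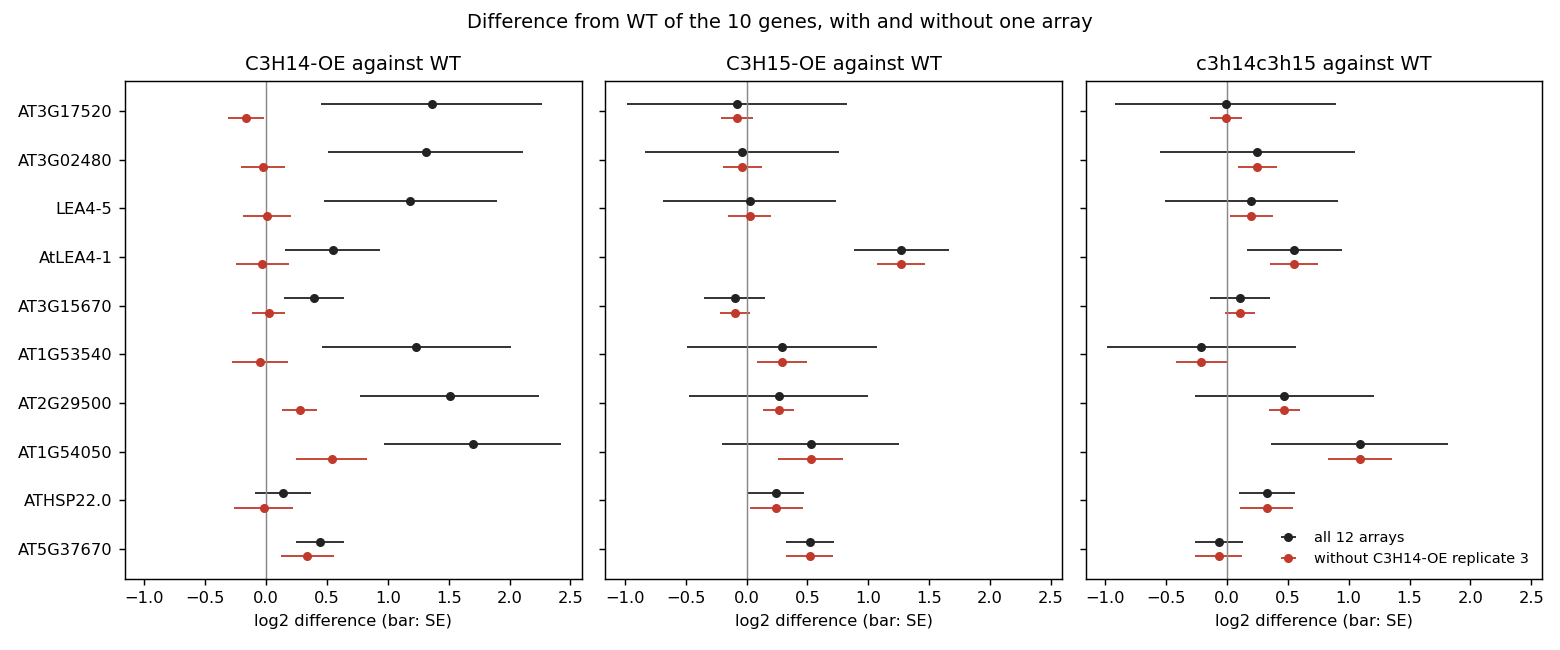
Log2 difference from WT of each of the 10 genes (horizontal axis, points with bars of 1 SE) for C3H14-OE, C3H15-OE and c3h14c3h15, from all 12 arrays and without the array labelled C3H14-OE replicate 3. In C3H14-OE AT3G17520 lies at 1.36 with that array and at -0.17 without it, and without it its bars are shorter in all 3 comparisons, which share 1 estimate of the spread.

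AtLEA4-1 had the largest difference from WT of the 10 in C3H15-OE. Its mean level was 4.87 ± 0.41 in C3H15-OE and 3.60 ± 0.07 in WT (SD, n = 3 each), a difference of 1.27 log2 units (SE 0.39). Against WT 0 of the 10 genes passed the threshold in C3H15-OE, where 6.65% of all probe sets passed, and 2 of 10 (AtLEA4-1 and AT5G37670) had an unadjusted p under 0.05, where 24.6% of all had one. The spread that limma gives AtLEA4-1 includes the array labelled C3H14-OE replicate 3, which is in neither of the groups compared. Without that array the difference was the same with an SE of 0.20, and AtLEA4-1 was the 1 gene of 10 that passed, where 3.86% of all probe sets passed as higher. AT5G37670 stood at 0.52 (SE 0.20), AT1G54050 at 0.53 (SE 0.73) and the LEA genes other than AtLEA4-1 between -0.10 and 0.03. In C3H15-OE 4 of 10 genes lay above WT on every array (AtLEA4-1, AT2G29500, AT1G54050 and AT5G37670), where 12.7% of all probe sets did. Below WT on every array lay 0 of 10, where 16.9% of all probe sets did.

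In the double mutant the mean level was above WT for 7 of the 10 genes and below it for 3. The median log2 difference was 0.23 over the 10 and -0.01 over all probe sets, and the share of all probe sets above WT was not counted. AT1G54050 stood highest, at 6.52 ± 0.57 in c3h14c3h15 and 5.43 ± 0.35 in WT (SD, n = 3 each), a difference of 1.09 log2 units (SE 0.73). AtLEA4-1 stood at 0.55 (SE 0.39) and AT2G29500 at 0.47 (SE 0.73), and these 3 genes were above WT on every mutant array, where 10.8% of all probe sets were. By limma 0 of 10 passed, where 5.7% of all probe sets passed, and 0 of 10 had an unadjusted p under 0.05, where 21.8% of all had one. Without the array labelled C3H14-OE replicate 3 the SE of AT1G54050 was 0.26 and it was the 1 of 10 that passed, where 3.06% of all probe sets passed as higher. Fitting only the mutant and WT arrays, which also leaves that array out, gave 0 of 10, so the call also depended on the spread of the other groups. The comparisons of C3H14-OE, C3H15-OE and c3h14c3h15 share the WT arrays.

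Between the overexpressors 0 of 10 genes passed by limma, where 0.123% of all probe sets passed, and 0 of 10 had an unadjusted p under 0.05, where 9.79% of all had one. AtLEA4-1 averaged 4.15 ± 1.01 in C3H14-OE and 4.87 ± 0.41 in C3H15-OE (SD, n = 3 each). Without the array labelled C3H14-OE replicate 3 it was 1.30 log2 units lower in C3H14-OE (log2 difference -1.30, SE 0.22) and was the 1 of 10 that passed, where 0.127% of all probe sets passed as lower. With both overexpressors averaged and set against c3h14c3h15, 1 of 10 passed, AT5G37670 at 0.55 log2 units higher (SE 0.17), where 25.5% of all probe sets passed and 13.5% passed as higher. That call was absent without the array labelled C3H14-OE replicate 3, at 0.50 (SE 0.17), and also without C3H14-OE replicate 1, C3H15-OE replicate 1 or 2, or c3h14c3h15 replicate 2 or 3.

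Genes of the same families and pathways, listed with earlier results of these data known, were read on the same arrays. Of 46 other LEA genes listed, 30 had a 1-gene probe set. On the array labelled C3H14-OE replicate 3 none of these 30 stood more than 4-fold above the other 2 C3H14-OE arrays and 3 stood more than 2-fold above them, where 0.659% and 1.97% of all probe sets did. Their median excess was -0.05 log2 units, as it was over all probe sets. The 3 were DI21, a drought-induced gene, at 1.85 log2 units, COR15A, which codes for a cold-induced chloroplast stroma protein, at 1.80, and LTI30, a dehydrin gene, at 1.71. DI21 read 7.75, 7.89 and 9.67 in C3H14-OE, 8.84, 9.04 and 8.08 in C3H15-OE, 7.47, 6.22 and 7.00 in c3h14c3h15 and 7.34, 7.79 and 7.14 in WT. It was thus also above WT on all C3H15-OE arrays, as were 6 of the 30, DI21 included, and 12.7% of all probe sets.

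**Figure D4:**
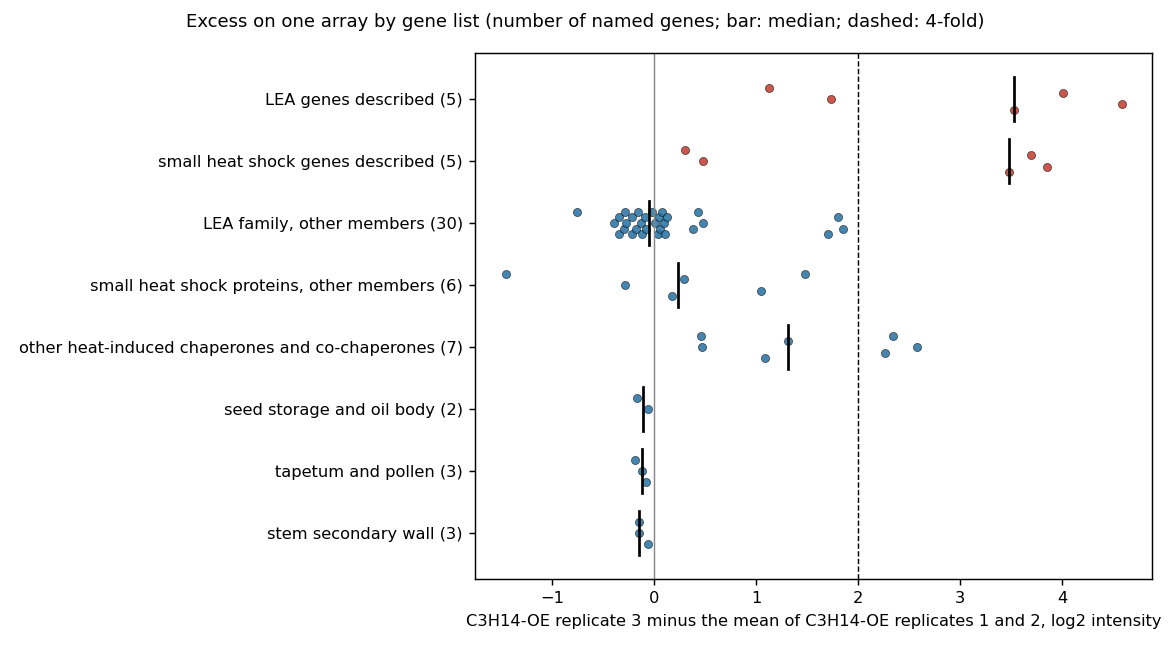
Log2 excess on the array labelled C3H14-OE replicate 3 over the mean of the other 2 C3H14-OE arrays (1 point per gene) for the 5 LEA and 5 small heat shock genes and for the listed genes of other groups. The 5 LEA genes lie between 1.12 and 4.58, the 30 other LEA genes have a median of -0.05 and a maximum of 1.85, and 3 of 7 chaperone genes lie above 2.

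Of 15 other small heat shock genes listed, 6 had a 1-gene probe set, and 0 of these stood more than 4-fold and 2 more than 2-fold above the other C3H14-OE arrays, against the same 0.659% and 1.97%. AT5G51440, whose product is mitochondrial, read 2.78, 3.06 and 4.39 in C3H14-OE, 4.90, 3.92 and 3.30 in C3H15-OE, 2.86, 3.30 and 3.50 in c3h14c3h15 and 2.32, 2.79 and 2.82 in WT. It was highest on C3H15-OE replicate 1. AT1G52560 had an excess of 1.05 log2 units, and AT4G21870 was lower there, at -1.45.

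Larger heat-induced chaperones and their helpers were read in the same way. Of 19 listed, 7 had a 1-gene probe set, of which 3 stood more than 4-fold above the other C3H14-OE arrays on the array labelled C3H14-OE replicate 3 and 5 were highest of the 12 there, where 0.659% and 6.27% of all probe sets were. AT2G20560, a DNAJ-type co-chaperone gene, read 5.14, 5.21 and 7.75 in C3H14-OE, 6.32, 5.60 and 5.75 in C3H15-OE, 6.04, 4.49 and 5.64 in c3h14c3h15 and 4.05, 4.30 and 4.01 in WT. All 9 arrays of the other groups lay above the 3 of WT, as they did for AT3G09440, a cytosolic HSP70 gene, and AT5G48570 (ROF2), an FKBP-type co-chaperone gene of heat acclimation, an order that 0.928% of all probe sets had. Hop3, which codes for an adaptor between HSP70 and HSP90, had an excess of 2.34 log2 units on that array and ROF2 of 2.26, while Fes1A, a nucleotide exchange factor gene of HSP70, had 1.31, Hsp70-2 had 1.08, AT3G09440 had 0.47 and HSA32 had 0.46.

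**Figure D5:**
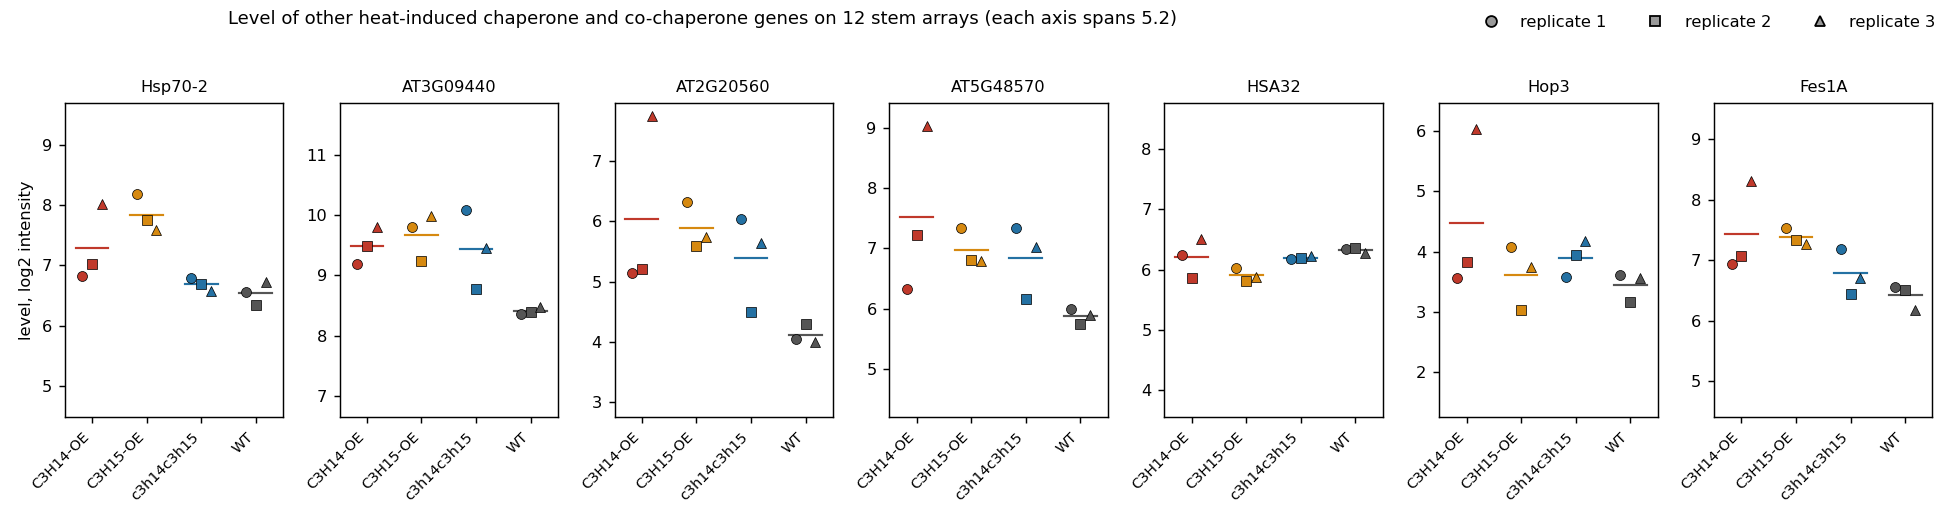
Log2 intensity (vertical axis) of the 7 heat-induced chaperone genes on the 12 arrays, 1 point per array, grouped as C3H14-OE, C3H15-OE, c3h14c3h15 and WT, with the group mean as a line. AT2G20560, AT5G48570 and Hop3 have their highest point on C3H14-OE replicate 3, at 7.75, 9.03 and 6.04, and AT2G20560, AT3G09440 and AT5G48570 have their 3 lowest points in WT.

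The tests of the chaperone genes, which are not among the 10, came next. By limma 2 of 7 rose in C3H15-OE against WT, where 3.09% of all probe sets did, Hsp70-2 by 1.29 log2 units (SE 0.26, adjusted p = 0.0189) and AT3G09440 by 1.26 (SE 0.29, adjusted p = 0.0281), and 0 fell, where 3.57% of all did. The median of the 7 was 1.10, and that of all probe sets was -0.03. Without the array labelled C3H14-OE replicate 3, which is in neither group, 5 of 7 rose, where 3.86% of all probe sets did. HSA32 fell by 0.42 log2 units (SE 0.12, limma adjusted p = 0.050), the 1 of 7 to fall, where 4.43% of all did. The 3 that joined were AT2G20560 at 1.77 (SE 0.33, limma adjusted p = 0.0120), AT5G48570 at 1.10 (SE 0.30, limma adjusted p = 0.0464) and Fes1A at 0.96 (SE 0.18, limma adjusted p = 0.0127). Leaving out C3H15-OE replicate 1 or WT replicate 1 left 0 of 7, and leaving out C3H15-OE replicate 2 or 3 or WT replicate 2 or 3 left 1. Over all settings tried the adjusted p of Hsp70-2 ran from 0.00308 to 0.0816 and that of AT3G09440 from 0.00916 to 0.102.

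In C3H14-OE 0 of the 7 chaperone genes passed against WT, where 0.044% of all probe sets passed, 5 had an unadjusted p under 0.05, where 14% of all had one, and the median difference was 1.02 log2 units. AT2G20560 had the largest difference of the 7 there, at 1.92 (SE 0.59, limma adjusted p = 0.236), and AT5G48570 the next, at 1.65 (SE 0.53, limma adjusted p = 0.240). In c3h14c3h15 0 of 7 passed, where 5.7% of all probe sets passed, 1 had an unadjusted p under 0.05 (AT3G09440, limma adjusted p = 0.0589), where 21.8% of all had one, and the median difference was 0.44. Without the array labelled C3H14-OE replicate 3, AT2G20560 passed in the mutant at 1.27 log2 units higher (SE 0.33, limma adjusted p = 0.0443), and AT3G09440 passed without c3h14c3h15 replicate 2 and when the dimmest 40% of probe sets were left out. Against the double mutant, Hsp70-2 rose in the mean of both overexpressors by 0.88 log2 units (SE 0.23, limma adjusted p = 0.0164), the 1 of 7 to pass. That share is near the 13.5% of all probe sets that rose in this contrast, and Hsp70-2 did not pass without c3h14c3h15 replicate 3. Whether the effect on chaperone genes differs between C3H14-OE and C3H15-OE was tested directly, and 0 of 7 passed, with 0 at an unadjusted p under 0.05, against 0.123% and 9.79% of all probe sets.

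Among the other small heat shock genes 1 of 6 rose in C3H15-OE, AT5G54660, an HSP20-like gene, by 0.98 log2 units (SE 0.18, limma adjusted p = 0.0133, between 0.00385 and 0.0596 over the settings tried), and 0 of 6 fell, where 3.09% of all probe sets rose and 3.57% fell. It read 6.36, 6.34 and 6.52 in C3H14-OE, 6.79, 6.50 and 6.58 in C3H15-OE, 6.23, 5.67 and 6.48 in c3h14c3h15 and 5.81, 5.55 and 5.57 in WT. The call was absent without C3H15-OE replicate 1 or WT replicate 3. The count was 2 of 6 without the array labelled C3H14-OE replicate 3, where AT5G51440 joined, as it did without C3H15-OE replicate 3, and 2 of 6 without c3h14c3h15 replicate 1 or 2, where AT2G19310 joined. AT4G21870 differed more and in the other direction, at 4.61, 5.33 and 4.19 in C3H15-OE and 6.49, 6.02 and 6.69 in WT, a log2 difference of -1.69 (SE 0.71). All its C3H15-OE arrays lay below all WT arrays, as for 16.9% of all probe sets. It did not pass (limma adjusted p = 0.168, between 0.0148 and 0.328 over the settings tried), except when only the arrays compared were fitted and without c3h14c3h15 replicate 1. In C3H14-OE and in c3h14c3h15 0 of 6 passed against WT, with 2 of 6 and 1 of 6 at an unadjusted p under 0.05, where 14% and 21.8% of all probe sets had one in the same order. Without c3h14c3h15 replicate 2, AT2G19310 and AT5G54660 passed in c3h14c3h15.

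Among the other LEA genes 2 of 30 rose in C3H15-OE and 1 fell, where 3.09% of all probe sets rose and 3.57% fell. AT2G46140 (LEA27) rose by 0.99 log2 units (limma adjusted p = 0.0058, between 0.00308 and 0.0307 over the settings tried) and the dehydrin gene LEA (AT2G21490) by 0.79 (limma adjusted p = 0.0250). LEA lay near the dim end, at 3.50, 3.15 and 2.72 in C3H15-OE and at 2.24, 2.51 and 2.23 in WT, and its call was absent in 6 of the settings tried, without C3H15-OE replicate 1 or 2, without WT replicate 1 or 3, with 16 added before log2 and when only the arrays compared were fitted. It was too dim to be tested without the dimmest 40% of probe sets. COR15B, a chloroplast protein gene of cold acclimation like COR15A, fell by 1.04 log2 units in C3H15-OE (limma adjusted p = 0.0230) and rose by 1.40 in c3h14c3h15 (limma adjusted p = 0.0084), in comparisons that share the WT arrays. The fall was absent without C3H15-OE replicate 1 or 2 or WT replicate 1 or 3. COR15B was the 1 of 30 to pass in c3h14c3h15, where 5.7% of all probe sets passed, and COR15A joined without the array labelled C3H14-OE replicate 3. In C3H14-OE 0 of 30 passed, with 3 at an unadjusted p under 0.05, where 14% of all probe sets had one, and a median difference of -0.06.

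With both overexpressors averaged and set against c3h14c3h15, 2 of the 30 other LEA genes rose and 2 fell, where 13.5% of all probe sets rose and 12% fell. DI21 rose by 1.65 log2 units (limma adjusted p = 0.0136) and LEA by 0.64 (limma adjusted p = 0.0105). Without c3h14c3h15 replicate 2 neither passed. COR15B fell by 2.20 log2 units and COR15A by 1.51, and COR15A did not pass without c3h14c3h15 replicate 2 or 3.

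Named seed and pollen genes were dim, at 1.89 to 3.69 on the 12 arrays. The summed intensity of the 2 named seed storage and oil body genes, AT1G03890 and OLEO3, was 11.5 on the array labelled C3H14-OE replicate 3 and 11.6 to 17.7 on the others. For the 3 named tapetum and pollen genes the sum was 21.0 there and 20.9 to 26.8 on the others. None of these 5 genes was more than 2-fold above the other C3H14-OE arrays on it. With both overexpressors averaged and set against c3h14c3h15, 1 of the 5 passed by limma, where 25.5% of all probe sets did. This was OLEO3, an oil body protein gene, which fell by 0.46 log2 units (SE 0.09, limma adjusted p = 0.00454, between 0.00395 and 0.0189 over the settings tried). OLEO3 read 2.90 to 3.10 on the 6 overexpressor arrays, 3.63, 3.39 and 3.49 in c3h14c3h15 and 3.26, 3.10 and 2.98 in WT, and all mutant arrays lay above all others. The share of all probe sets with that order was not counted, and 10.8% lay above WT on every mutant array. Of the 5 genes 0 passed in the other contrasts. Of 18 seed genes listed 2 had a 1-gene probe set, and of 21 heat shock transcription factor genes and 33 genes of the abscisic acid and dehydration response 0 had one, so those regulators were not analysed here.

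Other genes shared the array profile of the 10. Among 5989 genes brighter than the median, the 5 most like the mean LEA profile over 12 arrays were HEMA2, an enzyme gene of tetrapyrrole synthesis (r = 0.937), AT2G41190 (0.909), AT2G37870 (0.890), AT5G25450 (0.880) and AT1G73390 (0.850). The 5 most like the mean small heat shock profile were AT2G41190 (0.935), AT2G37870 (0.929), AT5G25450 (0.904), AT1G49450 (0.896) and BETA-VPE, a vacuolar processing enzyme gene (0.893). These are descriptions over arrays that share groups and normalization. All were lower over the 11 arrays without the array labelled C3H14-OE replicate 3. There r with the LEA profile was 0.375, 0.37, 0.546, 0.421 and 0.334 in the order named. With the small heat shock profile it was 0.615, 0.772, 0.586, 0.680 and 0.751. AT2G37870, of the lipid-transfer protein family, was at 11.89 on the array labelled C3H14-OE replicate 3 and between 5.13 and 8.07 on the others.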

How the data were processed

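The authors deposited 1 table of normalized intensity on a linear scale for 12 Affymetrix arrays, 1 per sample, which RMA produced, per the submitters' processing notes. No RMA version is named there. Per the labels' protocols, biotin-labelled cRNA was made from 200 ng of total RNA with a 3′ kit. Depth has no meaning for arrays, and their number limits the precision.

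Of 22810 rows 64 control rows were left out. Log2 was taken of the rest, and no 2 arrays were identical (r from 0.953 to 0.995). Probe sets were named through the platform annotation and RefSeq (TAIR10.1): 13513 had 1 gene, 503 several and 8730 were unlisted. A gene is read by its brightest 1-gene probe set. No build is named for the array, so no coordinates are given. Limma 3.58.1 (R 4.3.3) fitted a mean per group to all 12 arrays (8 residual and 3.61 prior degrees of freedom), with 5 contrasts and Benjamini-Hochberg adjustment over 22746 probe sets, checked on simulated data. The excess of an array is its level minus the mean of the other 2 arrays of its group.

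The 10 genes and the 8 further lists were chosen with earlier results of these data known. All 10 genes are named. From each list up to 4 genes past the threshold per contrast are named, or up to 2 with none past it, and 5 genes per family by likeness of profile. Genes named for their excess on 1 array, and those whose call changes with an array, were added after values were seen. Equal replicate numbers were not treated as pairs, since 4 of 18 same-numbered pairs correlated over 0.1 (-0.275 to 0.274).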

Additional observations from a re-analysis of the deposited data

How the results depend on the processing

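On the array labelled C3H14-OE replicate 3, 6 genes stood more than 4-fold above their group mates, where 0.659% of all probe sets did. The count was also 6 after a second quantile normalization (0.677% of all), after cyclic loess (0.69%) and with 16 added before log2 (0.418%). Without C3H14-OE replicate 1 or 2 it was 6 as well, where 0.796% and 0.602% of all passed. An 8-fold threshold gave 6 (0.317% of all), which was fixed, since the smallest of the 6 excesses was 11.1-fold. A 2-fold threshold gave 8 (1.97%). The genes were named with these values known, so the unchanged count is a description. The 8-fold and 2-fold thresholds were chosen after seeing the data. Of the 10 genes, the number past the limma threshold stayed at 0 in C3H14-OE against WT under all settings. Fitting only the arrays compared gave 1 (AtLEA4-1) in C3H15-OE against WT and 0 in the mean of both overexpressors against c3h14c3h15. In the latter contrast 16 added before log2 and leaving out the dimmest 40% of probe sets also gave 0. In the last case 1 of the 10 genes was still tested. AT5G37670, the gene called with all probe sets, was among those left out, so that 0 was fixed by the filter. Leaving out each array in turn gave 0 to 1 in C3H15-OE against WT, in c3h14c3h15 against WT, between the overexpressors and in the mean of both overexpressors against c3h14c3h15. Against WT and between the overexpressors, the array labelled C3H14-OE replicate 3 and c3h14c3h15 replicate 1 decided calls. Without c3h14c3h15 replicate 1, AT5G37670 passed in C3H15-OE against WT. In the mean of both overexpressors against c3h14c3h15, the call of AT5G37670 hung on the further arrays named above. With the replicate number as a block the 5 counts were 0, 0, 0, 0 and 1, as without it. Over all probe sets, leaving out 1 array moved the number past the threshold between 1 and 56 in C3H14-OE against WT (10 with all arrays), between 223 and 2019 in C3H15-OE (1513), between 361 and 1434 in c3h14c3h15 (1296), and between 0 and 183 between the overexpressors (28). Fitting only the arrays compared gave 39 in C3H14-OE against WT, 544 in c3h14c3h15 against WT and 0 between the overexpressors, the replicate block gave 4 in C3H14-OE against WT and 15 between the overexpressors, 16 added before log2 gave 3 and 11 in the same comparisons, and leaving out the dimmest 40% gave 18 between the overexpressors. In c3h14c3h15 against WT the split was 575 higher and 721 lower, and 795 and 559 after cyclic loess. Signals near the dim end limit AT3G15670, AT3G17520 and AT3G02480, whose levels on 11 arrays lie among the dimmest probe sets, so folds from there are uncertain in size. AT2G29500 lay at percentile 13.93 to 23.05 on those arrays, and its fold has the same limit. Its order against WT rests on 2.78 on C3H15-OE replicate 2 against 2.72 on WT replicate 2.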

Other observations

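Outside the listed groups, the named genes with the largest excess on the array labelled C3H14-OE replicate 3, found after the values were seen, were AT2G43590, of the chitinase family, at 6.28 log2 units over the other C3H14-OE arrays, AT4G33550, of the lipid-transfer protein family, at 6.25, and the defensin gene PDF1.2 at 5.95. SAG29, a sugar transporter gene of senescing leaves, stood at 5.42 and OSM34, an osmotin gene, at 4.18. Of the 20 named genes with the largest excess, 5 were among the LEA and small heat shock genes described above, AT3G17520 being the 8th. With the limit on brightness dropped, a setting chosen after seeing the data, the gene most like the mean LEA profile was AT4G33550 (r = 0.988 over 12 arrays, 0.649 over the 11 without that array) and the gene most like the mean small heat shock profile was SAG29 (0.965 and 0.444).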
